A study of Homo sapiens with 10 samples.

Results

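MSX1, MSX2, SOX2, SOX4, SOX9, TBX3, ID1, ID2, ID3 and ID4 are 10 developmental regulators out of the 11963 genes that the arrays paired with at least 1 probe set. They were listed by name and family, a list chosen by results of these same arrays that were already known, such as the R5020 differences of MSX2 and SOX2, and every probe set paired with 1 of these symbols alone was taken, 22 of 22277 in all. The R5020 differences with induced receptor are therefore given as a description, with no test. All 10 genes passed the level filter, which asked for log2 6 or more on the highest array and kept 10911 genes.

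The cells were T47D-Y, a line derived from T47D luminal breast cancer cells that has no endogenous progesterone receptor (PR), and each line carried an inducible vector under G418 and hygromycin B selection. The iKR line carried PR with the K388R change, which removes the lysine to which SUMO is attached, the iWT line carried wild-type PR, and the iEV line carried the empty vector. All cells had the dimerizer AP21967, which drives the vector, or its ethanol vehicle for 2 days, were starved of serum (for those same 2 days by the labels, for 1 day by the methods), and then received the synthetic progestin R5020 or ethanol for 6 h. The methods give AP21967 at 1 nM and R5020 at 10 nM, whereas the sample labels, read literally, give 10 nM and 100 nM. RNA was taken from iKR and iWT cells given both agents, either agent or neither, and from iEV cells with and without AP21967 only, and was hybridized to 1 Affymetrix U133A 2.0 array per condition, 10 in all. Each vector was represented by 1 line, so vector and line cannot be told apart, and whether fewer cells expressed a gene or each cell held less of its RNA cannot be told apart in RNA from whole cultures. All levels are deposited log2 signals, in which a difference of 1 is a 2 fold difference, and a difference of 2 single arrays has no replicate check.

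The 10 genes encode transcriptional regulators of embryonic patterning, several of which also act in the mammary epithelium. MSX proteins are homeobox repressors downstream of bone morphogenetic protein (BMP) signaling, SOX proteins bind DNA through a high mobility group box, and TBX3 is a T-box repressor that is required for mammary gland formation. ID proteins have a helix-loop-helix domain but no basic region, so they bind E proteins and keep them off DNA, and ID genes are themselves classic BMP targets. ID2 is needed for alveolar development in the mouse mammary gland.

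By the RefSeq annotation of GRCh38.p14, MSX2 lies on chromosome 5 from 174724582 to 174730896, SOX2 on chromosome 3 from 181711925 to 181714436, and ID1 on chromosome 20 from 31605289 to 31606510. SOX2 lies within the transcribed region of the noncoding RNA gene SOX2-OT. Promoter sequence was matched for 8 of the 10 genes (not SOX9 and TBX3), and the 250 bases before the gene start are shown for the gene with the largest R5020 difference between the receptors (MSX2), for the gene with the largest negative R5020 difference in both lines (SOX2), and for an ID gene with both receptor motifs searched (ID1). Capitals mark matches to any of 4 motifs searched on both strands, namely TGTTCT, the hexamer bound by steroid receptors, ACANNNTGT, the core of their palindromic site, GGCGCC, a GC-rich SMAD site, and CANNTG, the E box bound by E proteins.
MSX2 promoter (chr5:174724332-174724581, + strand): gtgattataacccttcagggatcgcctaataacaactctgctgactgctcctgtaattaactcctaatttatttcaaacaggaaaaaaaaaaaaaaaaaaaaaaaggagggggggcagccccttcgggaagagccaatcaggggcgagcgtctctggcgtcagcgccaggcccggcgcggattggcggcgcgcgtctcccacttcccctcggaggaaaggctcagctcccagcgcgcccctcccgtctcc
SOX2 promoter (chr3:181711675-181711924, + strand): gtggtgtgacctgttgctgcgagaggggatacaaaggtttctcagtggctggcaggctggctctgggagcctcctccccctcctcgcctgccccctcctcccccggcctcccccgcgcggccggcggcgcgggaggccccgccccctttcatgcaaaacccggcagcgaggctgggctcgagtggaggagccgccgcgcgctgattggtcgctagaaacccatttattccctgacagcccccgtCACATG
ID1 promoter (chr20:31605039-31605288, + strand): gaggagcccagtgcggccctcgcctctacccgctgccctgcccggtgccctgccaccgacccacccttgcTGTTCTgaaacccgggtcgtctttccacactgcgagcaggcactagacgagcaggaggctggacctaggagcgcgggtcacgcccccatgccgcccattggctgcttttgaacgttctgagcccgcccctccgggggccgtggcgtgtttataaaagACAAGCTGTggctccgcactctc
The hexamer TGTTCT was in 12.4% of 35116 promoter windows of this length and, of the 8, only in ID1, where it began at position -180 from the gene start. The core ACANNNTGT was in 4.61% of the windows and likewise only in ID1 of the 8, at -23. GGCGCC, in 16.4% of the windows, was in none of the 8. The E box, in 61.8% of the windows, was in SOX2 at -6, in ID2 at -205, in ID4 at -21 and in SOX4 at -221 and -63. A match is a string of letters in these windows and not a measured binding site.

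The lines were checked first. PGR, which encodes PR, was at log2 10.65 in iKR and 11.12 in iWT without either agent, against 6.25 in iEV, so that its mRNA was already high in the receptor lines without the dimerizer. With AP21967 and vehicle it was at 12.08 in iKR and 11.34 in iWT, against 6.17 in iEV. With both agents it was at 11.38 in iKR and 11.89 in iWT, R5020 differences of -0.71 and 0.55, so that the order of the receptor lines turned, and the part of the PGR level in the differences between the receptors was not tested. The array measures mRNA and not receptor protein. The 8 luminal epithelial markers had a summed signal of log2 16.69 to 16.91 over the arrays, whereas the 6 leukocyte markers with a probe set were at 9.74 to 9.94, the 8 fibroblast and endothelial markers at 10.65 to 10.78 and the 5 basal markers at 9.90 to 10.09. Among all 10911 genes, 95% had R5020 differences within 0.64 in iKR and 0.46 in iWT with AP21967, and within 0.24 and 0.26 without it.

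With induced receptor, the R5020 differences of the 10 genes went in both directions: SOX2 and ID2 were lower in both lines, and MSX2 was higher in iKR and slightly lower in iWT. In iKR, 1 gene was more than 1.5 fold higher (MSX2), beside 3.02% of all genes, and 3 were more than 1.5 fold lower (SOX2, ID1 and ID2), beside 3.16%. In iWT, none was more than 1.5 fold higher, beside 1.59% of all genes, and 2 were more than 1.5 fold lower (SOX2 and ID2), beside 1.02%. The iKR difference minus the iWT difference was past 1.5 fold upward for 2 of the 10 (MSX2 and SOX9), beside 1.03% of all genes, and downward for none, beside 1.48%. After the R5020 difference of the arrays without AP21967 was subtracted, the same 2 members were past 1.5 fold between the receptors, and the count over all genes was 684 (263 upward and 421 downward), against 273. The median R5020 difference of the 10 genes was -0.13 in iKR and -0.36 in iWT, against 0.03 and -0.02 over all genes. Just past 1.5 fold were ID2 in iWT at -0.70 and the receptor difference of SOX9 at 0.64. Just short of it were ID3 and TBX3 in iWT at -0.56 and -0.51.

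**Figure D1:**
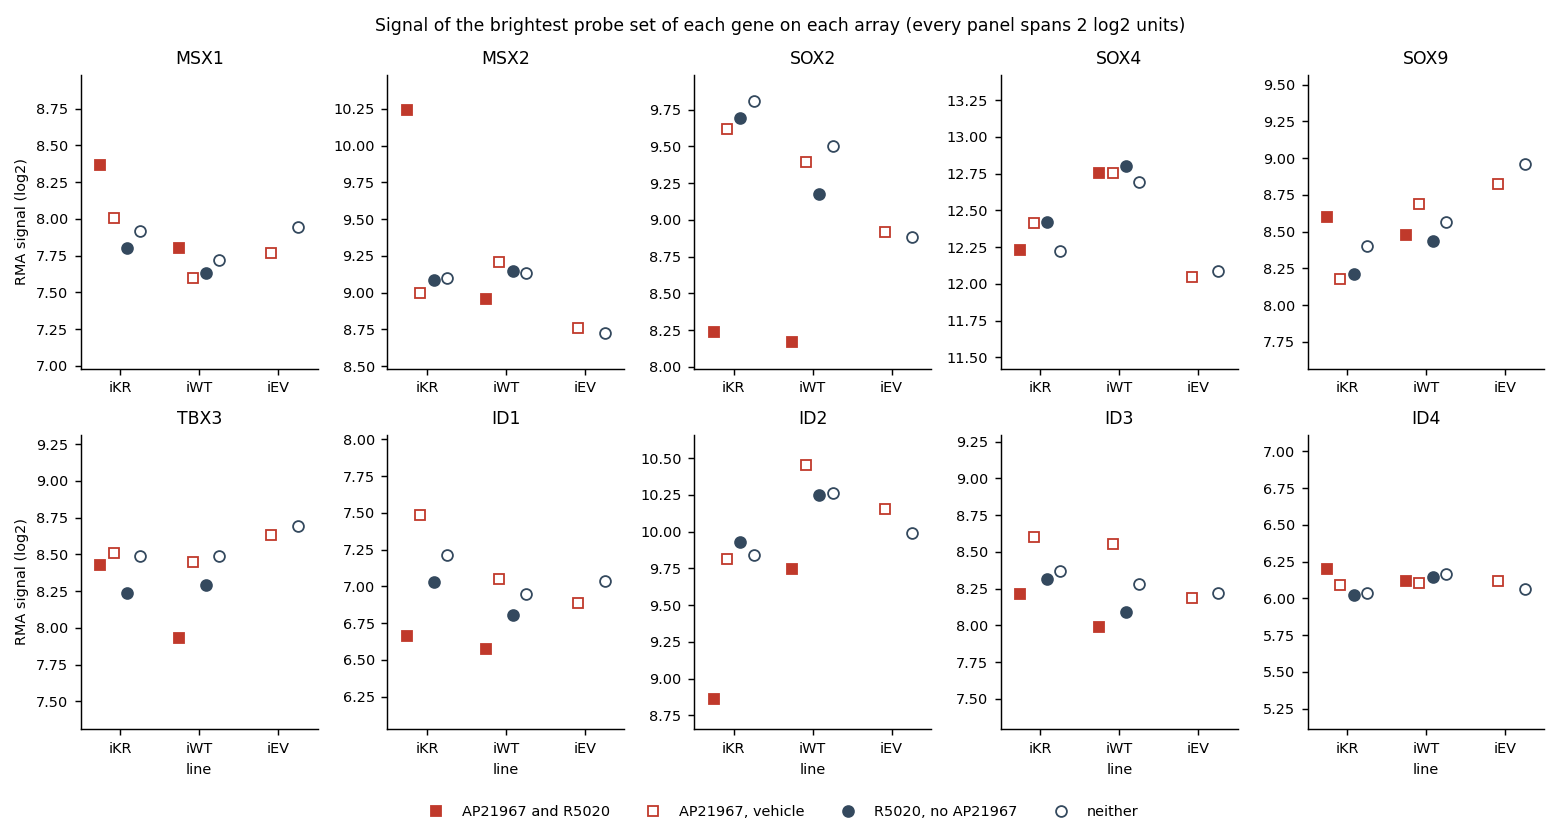
Each panel plots the signal (log2) of 1 gene's brightest probe set in the lines iKR, iWT and iEV (x axis), with a symbol for each array and no error bar since each condition has 1 array. The iKR array with both agents stands at 10.24 for MSX2 with the other arrays between 8.72 and 9.20, and both arrays with both agents are the lowest for SOX2 (8.24 in iKR and 8.17 in iWT).

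MSX2 was the member with the largest difference between the receptors. It was at log2 10.24 in iKR with both agents, against 9.00 with AP21967 alone, 9.09 with R5020 alone and 9.10 with neither. In iWT it was at 8.96 with both agents, against 9.20 with AP21967 alone, 9.15 with R5020 alone and 9.13 with neither. The array of iKR with both agents was thus above the 9 others, whereas the corresponding iWT array was the lowest of its line. The R5020 difference with AP21967 was 1.25 in iKR (2.37 fold higher) and -0.25 in iWT, which left a difference between the receptors of 1.49. Over the other 3 arrays of each line, the SD of MSX2 was 0.0469, with 4 degrees of freedom. Those arrays are different conditions and not replicates, so this SD is no test of the R5020 differences. R5020 without AP21967 gave MSX2 differences of -0.01 in iKR and 0.01 in iWT, and AP21967 alone gave -0.10 and 0.07.

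The 2 brighter probe sets of MSX2 agreed in direction and not in size. The second probe set was at 9.05 in iKR with both agents, against 8.32 to 8.41 on the other arrays of that line, a difference from AP21967 alone of 0.73. In iWT it was at 8.15 with both agents, against 8.61 to 8.64, a difference of -0.49. Its profile over the 10 arrays followed that of the first with a Pearson r of 0.898 (Spearman rho of 0.976); the arrays share their lines, so this is a description. The third MSX2 probe set stayed between 4.67 and 4.87 on all 10 arrays, under the log2 6 filter, with differences of 0.05 in iKR and -0.13 in iWT. Its r with the first was 0.12 (rho of 0.52), and its signs are not read as agreement. It was near background and carried little of the change seen by the other 2, so that the mean of the 3 probe sets gave 0.67 in iKR in place of 1.25.

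MSX1, the paralog of MSX2, had 1 probe set and smaller differences. It was at 8.37 in iKR with both agents, against 8.01 with AP21967 alone, 7.80 with R5020 alone and 7.92 with neither, and at 7.80 in iWT with both, against 7.60, 7.63 and 7.72. The R5020 difference was 0.36 in iKR and 0.21 in iWT, higher in both lines, and the array with both agents was the highest of its line in each. The difference between the receptors was 0.16 for MSX1.

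SOX2, a pluripotency factor, was lower with R5020 in both lines. It was at 8.24 in iKR with both agents, against 9.62 with AP21967 alone, 9.69 with R5020 alone and 9.81 with neither. In iWT it was at 8.17 with both agents, against 9.40, 9.18 and 9.50. These 2 arrays were also below both iEV arrays (8.92 with AP21967 and 8.89 without), whereas the 6 other arrays of the receptor lines were above them. The R5020 difference was -1.38 in iKR (2.60 fold lower) and -1.23 in iWT (2.34 fold lower), and the receptors differed by -0.15, a value from 4 single arrays with no replicate check. Without AP21967, the R5020 difference of SOX2 was -0.11 in iKR and -0.33 in iWT.

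The second SOX2 probe set gave the same picture, with differences of -0.92 in iKR and -0.77 in iWT, and its r with the first was 0.990 (rho of 0.976). The third did not follow them: its level was 6.93 to 7.34 over the 10 arrays, its differences were 0.01 in iKR and 0.12 in iWT, and its r with the first was -0.44 (rho of -0.35). It was above log2 6 on every array and is not counted as near background. The mean of the 3 probe sets gave -0.76 in iKR and -0.62 in iWT. The overlap with SOX2-OT, the strand of these probe sets and the share of either transcript in each were not tested.

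**Figure D2:**
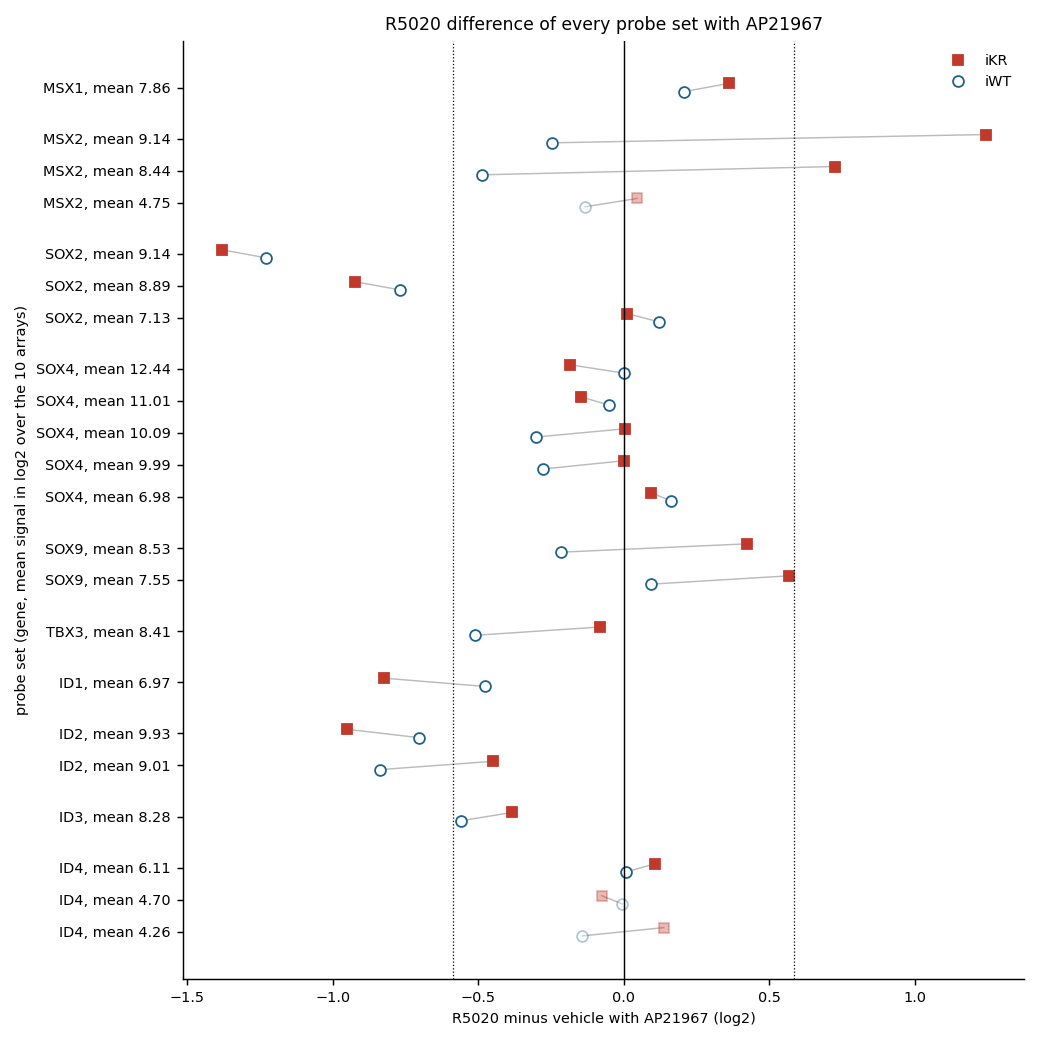
R5020 minus vehicle with AP21967 (x axis, log2) is plotted for all 22 probe sets (y axis, by gene, with the mean signal in the label), as filled squares for iKR and open circles for iWT, pale for the 3 probe sets near background, with dotted lines at 1.5 fold and no error bars since each point is 2 arrays. MSX2 has its iKR squares at 1.25 and 0.73 and its iWT circles at -0.25 and -0.49, and the third SOX2 and MSX2 probe sets lie between -0.13 and 0.12.

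SOX9, a regulator of cartilage and of epithelial progenitors, was higher with R5020 in iKR in both of its probe sets, which differed in sign in iWT. The brightest was at 8.60 in iKR with both agents, against 8.18 with AP21967 alone, 8.21 with R5020 alone and 8.40 with neither, and at 8.47 in iWT with both, against 8.69, 8.44 and 8.57. Its differences were 0.42 in iKR and -0.21 in iWT, which gave the receptor difference of 0.64. The second probe set had 0.57 in iKR and 0.10 in iWT, so that the receptor difference was 0.47 and no longer past 1.5 fold, and the sign in iWT turned. Their r over the 10 arrays was 0.904 (rho of 0.891).

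SOX4, a SOX factor of the TGF-beta response, was read by 5 probe sets, and none was past 1.5 fold in either line. The brightest was at 12.23 in iKR with both agents, against 12.41, 12.42 and 12.22 with AP21967, R5020 and neither, and at 12.76 in iWT with both, against 12.76, 12.80 and 12.69. The 5 R5020 differences ran from -0.18 to 0.09 in iKR and from -0.30 to 0.16 in iWT. Their profiles agreed over the 10 arrays (r of 0.863 to 0.984 with the brightest), and in all 5 every iWT array was above every iKR and iEV array.

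TBX3 had 1 probe set. It was at 8.43 in iKR with both agents, against 8.51 with AP21967 alone, 8.23 with R5020 alone and 8.49 with neither. In iWT it was at 7.93, against 8.44, 8.29 and 8.49, so that the iWT array with both agents was the lowest of the 10. The R5020 difference was -0.08 in iKR and -0.51 in iWT with AP21967, and -0.26 and -0.20 without it.

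The ID genes, other than ID4, were lower with R5020 in both lines. ID1 was at 6.66 in iKR with both agents, against 7.48 with AP21967 alone, 7.03 with R5020 alone and 7.21 with neither. In iWT it was at 6.58, against 7.05, 6.80 and 6.95. Both arrays with both agents were the lowest of their lines, and the R5020 difference of ID1 was -0.82 in iKR (1.77 fold lower) and -0.48 in iWT. The array with AP21967 alone was the highest of the iKR line. Against the mean of the 3 other arrays of the line, the iKR value of ID1 was -0.58, just short of 1.5 fold.

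ID2 was at 8.86 in iKR with both agents, against 9.81 with AP21967 alone, 9.93 with R5020 alone and 9.84 with neither. In iWT it was at 9.75, against 10.45, 10.25 and 10.26. The R5020 difference was -0.95 in iKR (1.93 fold lower) and -0.70 in iWT (1.63 fold lower). The second ID2 probe set was lower with R5020 as well, but with the receptors in the opposite order, at -0.45 in iKR and -0.84 in iWT, so that the ID2 probe sets do not settle which receptor had the larger difference. A further probe set that ID2 shares with ID2B, and that was not counted as a member, had -0.45 in iKR and -0.55 in iWT. The brightest and second ID2 probe sets had an r of 0.890 (rho of 0.952).

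ID3 was at 8.22 in iKR with both agents, against 8.60 with AP21967 alone, 8.31 with R5020 alone and 8.37 with neither, and at 7.99 in iWT, against 8.55, 8.09 and 8.28. The R5020 difference of ID3 was -0.38 in iKR and -0.56 in iWT. As for ID1, the array with AP21967 alone was the highest of its line, in both lines, and the SD over the other arrays was 0.196, the widest of the 10 genes. ID4 gave no usable profile: its brightest probe set stayed between 6.02 and 6.20 on all 10 arrays, its 2 others were under the filter on every array (means of 4.70 and 4.26), and their r with the brightest was -0.11 and 0.04. ID4 differences were 0.11 in iKR and 0.01 in iWT. In total, 3 of the 22 probe sets were near background, being under log2 6 on every array, and the same 3 were under log2 5.5.

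Without AP21967, the R5020 differences were small, although PGR mRNA was high. None of the 10 genes passed 1.5 fold in iKR, beside 0.0825% of all genes, and none in iWT, beside 0.11%. The member values ran from -0.26 (TBX3) to 0.20 (SOX4) in iKR and from -0.33 (SOX2) to 0.11 (SOX4) in iWT, and their medians were -0.09 and -0.11, against 0.00 and -0.01 over all genes. TBX3 in iKR and SOX2 in iWT were past the range that held 95% of all genes.

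AP21967 alone was tested with limma on the 6 arrays without R5020, with the line as a block, which measures the spread between arrays of 3 lines and not between cultures. None of the 10 genes was called, beside 0% of all genes (0 of 10911 at an adjusted p under 0.05, with 981 at an unadjusted p under 0.05, of which 1 was a member, ID3). The member estimates ran from -0.09 (SOX2) to 0.15 (ID3, standard error 0.066, adjusted p = 0.554 from limma). ID3 was 0.23 higher with AP21967 in iKR and 0.27 higher in iWT, against -0.03 in iEV.

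At baseline, the receptor lines differed from iEV in 6 of the 10 genes. These comparisons used the same 6 arrays and limma fit, with the mean of iKR and iWT set against iEV. The arrays with AP21967 and vehicle also enter the R5020 differences above, so the 2 sets of values are not independent. Of the 10, 4 rose (SOX2, SOX4, MSX2 and ID3), beside 14.3% of all genes, and 2 fell (SOX9 and TBX3), beside 13.9%. SOX2 was 0.68 higher in the receptor lines (standard error 0.059, adjusted p = 0.000157 from limma), with 9.62 and 9.81 in iKR and 9.40 and 9.50 in iWT, against 8.92 and 8.89 in iEV, so that neither array of iEV reached those 4 arrays. Its second probe set was likewise higher, at 9.17 and 9.41 in iKR and 9.06 and 9.05 in iWT, against 8.78 on both iEV arrays. The third was at 7.11 and 6.93 in iKR and 7.22 and 6.99 in iWT, against 7.03 and 7.10 in iEV, with overlapping values.

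SOX4 was 0.46 higher in the receptor lines (standard error 0.060, adjusted p = 0.00105) and MSX2 0.37 higher (standard error 0.055, adjusted p = 0.00202). SOX4 was at 12.41 and 12.22 in iKR and higher in iWT, at 12.76 and 12.69, against 12.04 and 12.09 in iEV. Its other probe sets were 0.04 to 0.37 above iEV in iKR and 0.32 to 0.97 above it in iWT, so the larger part was in iWT. MSX2 was at 9.00 and 9.10 in iKR and at 9.20 and 9.13 in iWT, against 8.76 and 8.72 in iEV. The second MSX2 probe set was at 8.32 and 8.41 in iKR and 8.64 and 8.61 in iWT, against 8.21 and 8.02 in iEV. With AP21967 it was only 0.11 higher in iKR than in iEV. SOX9 fell by 0.43 (standard error 0.074, adjusted p = 0.00381), with 8.18 and 8.40 in iKR and 8.69 and 8.57 in iWT, against 8.82 and 8.96 in iEV, and its second probe set was lower by more, with 7.13 and 7.16 in iKR and 7.55 and 7.53 in iWT, against 8.22 and 8.03 in iEV.

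The calls for ID3 (0.25 higher, adjusted p = 0.0317 from limma) and TBX3 (-0.18, adjusted p = 0.0314) did not hold when single arrays were left out. The TBX3 call was lost when any 1 of the 6 arrays was left out (adjusted p of 0.0525 to 0.162). The ID3 call was lost without the iEV, iWT or iKR array with AP21967 (adjusted p of 0.318, 0.113 and 0.0913), and the ID3 difference dropped to 0.11 without that of iEV. Most of the ID3 difference was on the arrays with AP21967. ID3 was above iEV by 0.42 in iKR and 0.37 in iWT with AP21967, and by 0.15 and 0.07 without it. ID1 (0.21, adjusted p = 0.0926 from limma), ID2 (0.02), ID4 (0.01) and MSX1 (-0.04) were not called.

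**Figure D3:**
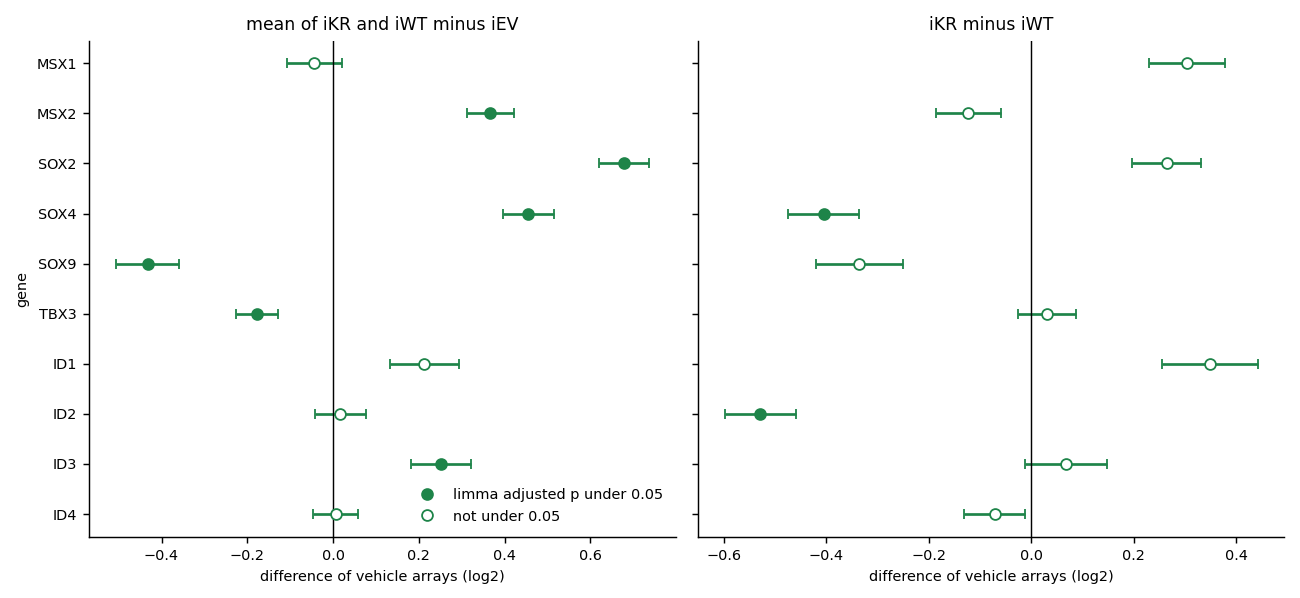
Differences between vehicle arrays (x axis, log2) are plotted for the 10 genes (y axis), on the left for the mean of iKR and iWT minus iEV and on the right for iKR minus iWT; points are limma estimates from 6 arrays, bars are standard errors, and filled points have an adjusted p under 0.05. SOX2 stands at 0.68 and SOX9 at -0.43 on the left, and ID2 at -0.53 and SOX4 at -0.41 on the right.

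Between the receptor lines without R5020, 2 of the 10 genes fell in iKR (ID2 and SOX4), beside 2.11% of all genes, and none rose, beside 2.91%. ID2 was 0.53 lower (standard error 0.069, adjusted p = 0.00705 from limma), with 9.81 and 9.84 in iKR, against 10.45 and 10.26 in iWT. Its second probe set had 8.91 and 8.78 in iKR, against 9.56 and 9.46 in iWT. SOX4 was 0.41 lower (standard error 0.069, adjusted p = 0.0182), and all 5 of its probe sets were lower in iKR both with and without AP21967. Both calls rested on 2 arrays of 1 line against 2 of another: leaving out any of these 4 arrays ended the SOX4 call (adjusted p of 0.0506 to 0.163), and leaving out any of them except the iKR array with neither agent ended the ID2 call (adjusted p of 0.0625 to 0.100). MSX1 (0.30, adjusted p = 0.0652), SOX9 (-0.34, adjusted p = 0.0735), SOX2 (0.26, adjusted p = 0.0782) and ID1 (0.35, adjusted p = 0.0878) were not called. MSX2 differed by -0.12 (adjusted p = 0.365), so that the MSX2 level in iKR before R5020 was not above that in iWT on either array pair.

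Related pathway and family genes were described by limma over the 8 iKR and iWT arrays, which asked whether the R5020 difference shared by both lines was larger with AP21967 than without it (2 residual degrees of freedom). It rose for 1.41% and fell for 0.687% of all genes. Of 29 measured BMP and TGF-beta pathway genes, none rose and 1 fell, BAMBI, a pseudoreceptor that dampens BMP and TGF-beta signaling. BAMBI was at 10.77 in iKR with both agents, against 11.67 with AP21967 alone, and at 10.97 in iWT, against 12.02, and its inducer-dependent difference was -0.83 (standard error 0.112, adjusted p = 0.0079 from limma). SMAD1, which carries the BMP signal to the nucleus, had R5020 differences with AP21967 of -0.49 in iKR and -0.35 in iWT. Its inducer-dependent difference of -0.46 was not called (adjusted p = 0.0847 from limma). The coreceptor TGFBR3 had R5020 differences with AP21967 of 1.07 in iKR and 0.50 in iWT. Its inducer-dependent difference of 0.73 was not called either (adjusted p = 0.0956 from limma). At an unadjusted p under 0.05, 3 genes of this list were higher (TGFBR3 and the receptors ACVR1 and TGFBR1) and 3 lower (BAMBI, SMAD1 and the ligand BMP7). Over all genes, 1611 of 10911 were under that unadjusted p, counting both directions.

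Of 11 measured E proteins and other helix-loop-helix factors, none rose and 2 fell, the repressors BHLHE41 and BHLHE40. Their inducer-dependent differences were -0.67 (adjusted p = 0.0384 from limma) and -0.66 (adjusted p = 0.0391). The R5020 differences with AP21967 were -0.94 in iKR and -0.65 in iWT for BHLHE41, and -0.67 and -0.37 for BHLHE40. A second BHLHE40 probe set had only -0.11 and -0.09. The E proteins that ID proteins bind, TCF12 (-0.26 in iKR and -0.09 in iWT), TCF3 (-0.15 and -0.06) and TCF4 (-0.52 and -0.15), were not called. Nor was the Notch target HES1 (inducer-dependent difference of -0.53, adjusted p = 0.0886 from limma). None of the 7 other measured SOX genes, 11 other T-box genes, 17 MSX-related homeobox genes and 13 epithelial-mesenchymal genes was called in either direction. At an unadjusted p under 0.05, these lists held 0, 0, 1 and 3 genes, beside 1611 of 10911 over all genes. The median inducer-dependent difference was -0.10 for the BMP and TGF-beta genes, -0.15 for the helix-loop-helix genes, -0.16 for the other SOX genes, 0.03 for the T-box genes, 0.05 for the homeobox genes and -0.08 for the epithelial-mesenchymal genes, against 0.00 over all genes. SOX12 was lower with R5020 both with AP21967, at -0.60 in iKR and -0.64 in iWT, and without it, at -0.43 and -0.32. Its inducer-dependent difference of -0.25 was not called (adjusted p = 0.349 from limma). Of the 8 luminal markers 2 fell, FOXA1 (inducer-dependent difference of -0.92, adjusted p = 0.0259 from limma) and ESR1 (-0.82, adjusted p = 0.0248). The part of FOXA1 and ESR1 in the SOX2 and ID differences was not tested. After cyclic loess, BHLHE41, BHLHE40, FOXA1 and ESR1 were no longer called (adjusted p of 0.0619 to 0.0838), nor were they without the iKR array given R5020 alone or the iKR array given neither agent (0.0620 to 0.225), and the mean of the ESR1 probe sets gave -0.05.

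For MSX2 and SOX2, the genes with the most similar profile over the 10 arrays were looked up among 653 genes with a range of at least 1 (log2). For MSX2 these were TP53BP1 (r of 0.980), KIAA0513 (0.966), NFKBIE (0.939), DENND2B (0.914) and RGS19 (0.913). Their R5020 differences with AP21967 were 0.84 to 1.28 in iKR and -0.06 to 0.19 in iWT, and TP53BP1, KIAA0513 and NFKBIE were lower in iEV than in both receptor lines, as MSX2 was. For SOX2 they were ATXN1 (r of 0.986), KLF5 (0.961), FAM13A (0.960), TNS1 (0.947) and ZBED5 (0.944), with differences of -1.35 to -0.88 in iKR and -0.89 to -0.56 in iWT. These profiles rest on 1 or 2 arrays that stand apart, and the likeness is a description with no test.

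**Figure D4:**
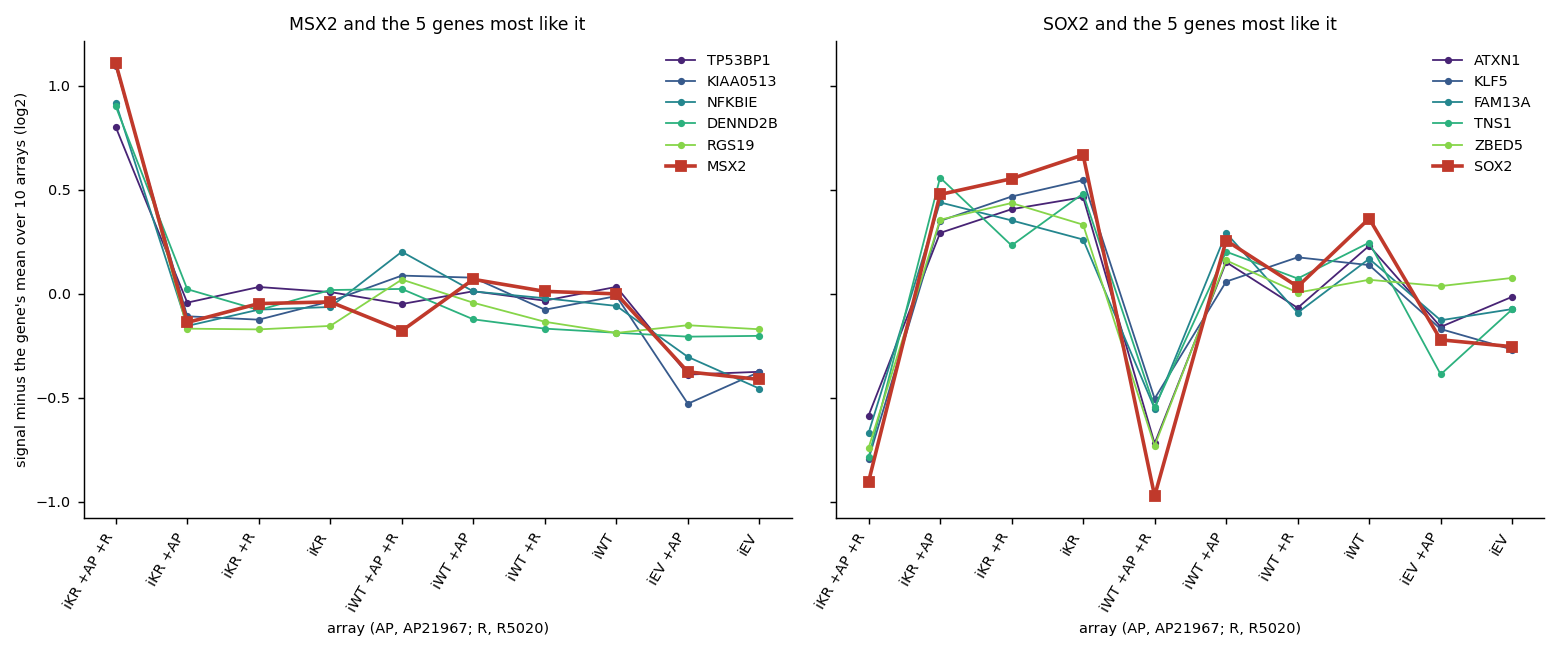
Signal minus each gene's mean over the 10 arrays (y axis, log2) is plotted by array (x axis; AP, AP21967; R, R5020) for MSX2 on the left and SOX2 on the right, thick red line, with the 5 most similar genes in thin lines. MSX2 and its 5 genes stand apart on the iKR array with both agents, and SOX2 and its 5 genes are lowest on the 2 arrays with both agents.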

How the data were processed

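RNA of 10 conditions of T47D-Y lines was measured with Affymetrix U133A 2.0 arrays, 1 array each, labelled as replicate 1 in every group. The authors summarised their CEL files with the Robust Multi-array Average method of the affy package in R, and the values they deposited are background-corrected, quantile-normalized log2 signals per probe set; versions are not given in the sources used here. Quantile normalization makes the arrays alike in overall distribution, so that only relative changes are seen, and arrays have no read depth; their number limits the precision. The present and absent calls of the authors were not used here.

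Of 22277 probe sets, 19070 were paired with 1 gene by the platform annotation, 1043 with several and 2164 with none. Each of the 11963 genes was represented by its probe set of highest mean over the 10 arrays, and 10911 genes with a highest array of at least log2 6 were compared. Members past 1.5 fold were counted beside all genes. R5020 differences with AP21967 are differences of single arrays with no test. limma 3.58.1 in R 4.3.3 (lmFit and eBayes) was fitted across all genes to the 6 arrays without R5020 (line plus AP21967) and, for related genes, to the 8 iKR and iWT arrays, and p values were adjusted by Benjamini-Hochberg over all genes, with a call under 0.05. Each fit had 2 residual degrees of freedom. With 1 line per vector and no statement of separate cultures, p values measure only the spread between these arrays, which may be technical. Both fits were run on simulated data with independent noise on each array and no line effects. Such data cannot test the fits for differences between lines or cultures.

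The members and the related lists (BMP and TGF-beta pathway, helix-loop-helix, SOX, T-box and homeobox genes, epithelial-mesenchymal genes, and luminal, basal, fibroblast and endothelial, and leukocyte markers) were chosen with earlier results of these data known. The text names all 10 members, PGR, the 5 called genes of the related lists, and the 5 genes most like each of MSX2 and SOX2. Of the uncalled genes of highest level in the lists, the Results describe only SMAD1, TCF12, TCF3 and HES1. Others were left out, among them INHBB (R5020 differences with AP21967 of -0.03 in iKR and -0.04 in iWT) and ACVR1B (0.06 and -0.33). HES1, TCF4, TGFBR3, ACVR1, TGFBR1, BMP7 and SOX12 were named after their values were seen. Promoters are from RefSeq on GRCh38.p14. Alternatives were the mean of probe sets, no _x_at or _s_at probe sets, cyclic loess, median centring, other level filters, 2.0 fold, other reference arrays, other limma settings, and leaving out each array. Python 3.11.15, numpy 2.4.6, pandas 2.3.3 and matplotlib 3.10.9 were used.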

Additional observations from a re-analysis of the deposited data

Results flagged for a closer look

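In 3 of the 10 genes (30%), the R5020 difference with AP21967 had opposite signs on the single iKR pair and the single iWT pair of arrays. Over all 10911 genes this share was 35.9%, so opposite signs were no more frequent among the members. For MSX2 the iKR difference was 1.25 and the iWT difference -0.25, so that the receptors differed by 1.49, and for SOX9 they were 0.42 and -0.21, a difference of 0.64. For SOX4 the values were -0.18 in iKR and 0.00 in iWT, a difference of -0.18; its iWT value was -0.02 after median centring and -0.09 for the mean of probe sets, so that its sign in iWT is not settled, and the 2 other SOX4 probe sets with the largest receptor differences had 0.31 and 0.28. These differences between the receptors were not tested, since each line has 1 array per condition.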

How the results depend on the processing

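No paired analysis was possible because every label carries replicate 1, so that the groups share fewer than 2 numbers, and with 1 array per condition the R5020 differences have no array to leave out. Without _x_at and _s_at probe sets, which left 2 of the 10 genes, the counts of members past 1.5 fold with AP21967 were 1 in iKR, 1 in iWT and 0 between the receptors, against 4, 2 and 2, beside 425, 186 and 195 of 7241 genes. At 2.0 fold they were 2, 1 and 1, beside 1.48%, 0.614% and 0.257% of all genes. The mean of probe sets left 1 gene (MSX2) past 1.5 fold between the receptors, beside 222 of 10705 genes. The mean of the 3 other arrays as reference left 1 in iWT (SOX2), beside 251 of 10911, with ID2 at -0.57. That reference left 3 in iKR, without ID1, beside 590 of 10911. The filter of a mean of log2 7 or more, which ID1 did not pass, also left 3 in iKR, beside 610 of 9222. Net of the R5020 difference without AP21967, iKR had 5, with SOX9 added, beside 789 of 10911. Cyclic loess and median centring kept all 3 counts, and the counts without AP21967 and for AP21967 alone were 0 under every alternative run.

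Without _x_at and _s_at probe sets, only 2 of the 10 genes were left (SOX2 and SOX4), and both were called between the receptor lines and iEV. With all probe sets 6 were called, beside 28.2% of all genes. The share over all genes without those probe sets is not given here, so the 2 calls say little about the members. The members called changed when single arrays were left out, which leaves 1 vehicle array in a line, and TBX3 was then never among them. Of the 2 called between iKR and iWT, 1 was called without those probe sets, where ID2 had no probe set left. The members called also changed when single arrays were left out. With a mean of log2 7 or more 4 were called, and 6 with an intensity trend in limma. The count over all genes at that mean filter is not given here. Over all genes, the calls between iKR and iWT were 317 higher and 230 lower, against 521 and 467 with the trend. Of the 5 related genes called, 1 (BAMBI) was called after cyclic loess, and 1 to 17 of the related genes were called when an array was left out (1 without either iKR array lacking AP21967, 3 without either iWT array lacking it, 17 without either iWT array with it). No called value changed sign under any alternative run.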
